A study of Mus musculus with 10 samples.

Results

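The genes described here are the 77 mitochondrial ribosomal protein genes whose symbols begin with Mrpl or Mrps followed by a number, of 32531 gene rows in the count files. Of these, 48 carry the large-subunit prefix and 29 the small-subunit prefix. They were followed across 9 ribosome pull-downs and 1 input library from mouse striatum. All mice were adult Drd1-TRAP CP73 animals, in which EGFP fused to the ribosomal protein L10a is driven by the Drd1 promoter, so that tagged ribosomes come from cells expressing the dopamine D1 receptor, chiefly direct-pathway medium spiny neurons. The strain was FVB/N-Swiss Webster crossed to C57BL/6, with at least 9 generations of C57BL/6 behind the mice used. Tagged polysomes were captured from whole striatum with antibodies to EGFP (translating ribosome affinity purification, TRAP), and the bound RNA was sequenced. The 9 pull-downs form 3 groups of 3 from a short-access intravenous self-administration study. Mice took saline in one group and cocaine in another; the last was a yoked control, and the labels do not state what it was given. The input is striatal total RNA from the same line, with no treatment named. Whether each library is a different animal is not stated, so a p-value here reflects variation among libraries that could be purely technical.

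The mitochondrial ribosome translates the few proteins that the mitochondrial genome encodes, all of them subunits of the respiratory chain and the ATP synthase. Its ribosomal RNAs are made in the mitochondrion, whereas its proteins are encoded in the nucleus, made on cytosolic ribosomes and imported. The RNAs measured here are therefore the nuclear messages being read by cytosolic ribosomes, not products of the mitochondrial ribosome. Part of the proteins have a counterpart in bacterial ribosomes and part are found only in mitochondria. A pair of proteins with the small-subunit prefix, Mrps30 and Mrps18a, sit in the large subunit, and Mrps36 is now placed in the 2-oxoglutarate dehydrogenase complex. Where large and small subunits are compared below, they are grouped accordingly. By its number, Mrps36 was kept among the mitochondrion-specific genes.

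Gene counts, in units of 1e+06, were 12.5 to 45.2 per pull-down and 40.5 for the input. The markers of the labelled cell class were higher than in the input and those of the D2 class lower: the 7 of 8 listed D1 neuron markers that have a row summed to 2232 to 3274 counts per 1e+06 gene counts (CPM) in the pull-downs against 1116 in the input, and 5 D2 neuron markers to 144 to 486 against 1439. Markers of cortical glutamatergic neurons, 4 genes including Slc17a7 and Tbr1, lay on both sides of the input: they summed to 20.2 to 112 CPM in the pull-downs against 31.2 in the input (median ratio 2.03), though 0 of the 4 were above the input in every pull-down. Their part in the results was not tested. The sequencing lane was the same within each group and differed between groups: the effects of lane and group cannot be told apart. The input was in a lane apart from all pull-downs, so lane and pull-down cannot be told apart in the ratios to the input either. The input also held RNA of 3 pituitary genes at 2624 CPM, against 0.42 to 381 CPM in the pull-downs.

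Every mitochondrial ribosomal protein RNA at a measurable level stood higher in each pull-down than in total striatal RNA. Of the 77 genes, 75 reached a level of 1 CPM in the input or on average in the pull-downs, and all 75 lay above the input in each of the 9 pull-downs. Among all 14412 genes at that level, 28.3% did so. The median ratio over the 75 genes was 2.20, against 0.936 over all genes, and the ratios ran from 1.15 to 4.85. A total of 30 of the 75 were at least 2-fold above the input in each of the 9 pull-downs, against 3.32% of all genes, and 0 lay below it in each, where 38.2% of all genes did (12.6% by 2-fold). Ratios are means over pull-downs of log2 values after adding 0.5 CPM to both sides. With 1 input library there is no replicate check of the reference and no test was made. In such bulk samples fewer cells of a type and less RNA per cell cannot be told apart, and no value here separates D1 neurons that carry more of these RNAs from other cells that carry less.

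**Figure D1:**
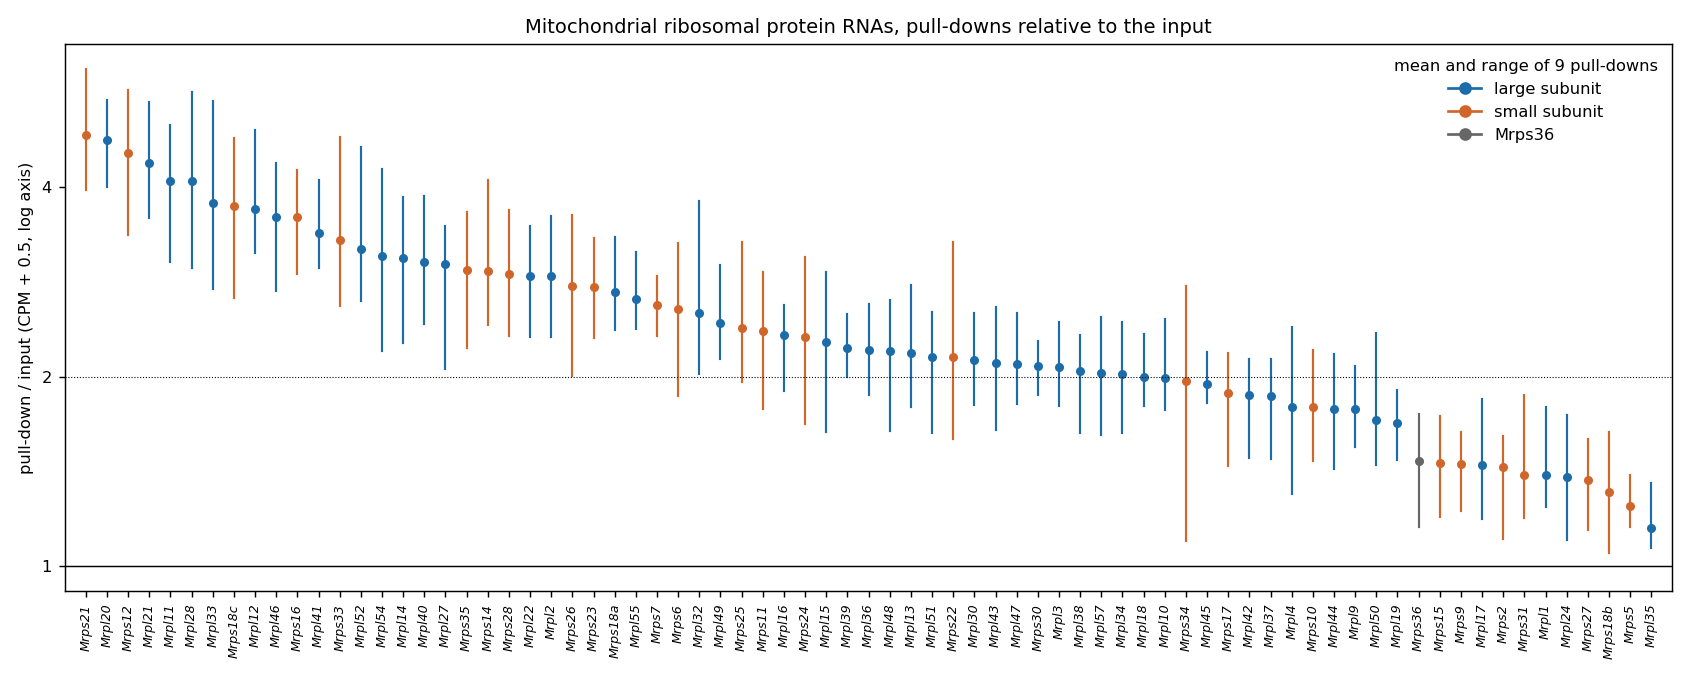
Ratio of pull-down to input level (CPM + 0.5, log axis) for the 75 genes at 1 CPM or more, in order of the mean; points are means and lines the range of 9 pull-downs. No line reaches the input level of 1, and the means fall from 4.85 for Mrps21 to 1.15 for Mrpl35.

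The highest ratios belonged to Mrps21 and Mrpl20. Mrps21, the counterpart of the bacterial small-subunit protein of the same number (chromosome 3, 95862634 to 95871514, RefSeq GRCm38.p6), had 12.1 CPM in the input and a pull-down mean of 61.2 ± 8.48 CPM (SD, n = 9), a ratio of 4.85 with a range of 3.96 to 6.17. Mrpl20 (chromosome 4, 155802878 to 155808831) stood at 11.5 CPM in the input and 56.9 ± 6.38 CPM in the pull-downs, 4.76-fold. In their lowest pull-downs these genes were still at 3.96 and 4.01 times the input. Mrps12, whose bacterial counterpart lies at the decoding centre, followed at 4.54-fold, with 36.5 CPM in its lowest pull-down and 10.5 CPM in the input. Mrpl21, Mrpl11 and Mrpl28 were at 4.37, 4.09 and 4.09 times the input.

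At the other end Mrpl35 (chromosome 6, 71812997 to 71823784) barely exceeded the input. It had 48.5 CPM there and a pull-down mean of 56.1 ± 4.58 CPM (SD, n = 9), a ratio of 1.15 with a range of 1.07 to 1.36. Mrps5 was at 1.25, Mrps18b at 1.31, and Mrps27, a pentatricopeptide-repeat protein of the small subunit, at 1.37. Mrpl24 and Mrpl1 had ratios of 1.39 and 1.39. The highest pull-down of Mrpl35 lay below the lowest of Mrps21 when each was set against its own input level. These genes were picked as the extremes of this same ratio, so the gap between them is no separate result.

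Some proteins that act together differed in ratio. In the stalk that recruits translation factors, Mrpl11 and Mrpl12, the latter also a binding partner of the mitochondrial RNA polymerase, had ratios of 4.09 and 3.70 (Mrpl12 at 54.0 ± 9.30 CPM, SD, n = 9, against 14.1 in the input), whereas Mrpl10, which anchors the stalk, had 1.99 (65.5 ± 7.10 against 32.5 CPM). The ranges over the 9 pull-downs were 3.04 to 5.02 for Mrpl11, 3.15 to 4.94 for Mrpl12 and 1.77 to 2.47 for Mrpl10, so that Mrpl10 did not overlap Mrpl11 or Mrpl12. The 3 relatives of the bacterial protein S18 differed as well. Mrps18c was at 3.74 times the input, Mrps18a at 2.73 and Mrps18b at 1.31, with ranges of 2.67 to 4.79, 2.37 to 3.33 and 1.05 to 1.64. Mrpl45, which lies where the ribosome meets the inner membrane, was at 1.95 with a narrow range of 1.82 to 2.19, and Mrps30 at 2.08. Mrps36 was at 1.47, on few counts: 42 to 136 in a pull-down and 69 in the input.

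The classes within the ribosome had medians between 2.17 and 2.38. The 48 large-subunit genes had a median ratio of 2.19, with 19 at least 2-fold above the input in every pull-down, and the 26 small-subunit genes 2.38, with 11. Genes with a bacterial counterpart (40 genes, median 2.24) and mitochondrion-specific genes (32 genes including Mrps36, median 2.17) differed by less. The quartiles of all 75 were 1.87 and 2.95, wider apart than any of these medians. In each pull-down all 75 genes were above the input, and the median ratio of a pull-down ran from 1.95 in saline 3 to 2.54 in cocaine 2.

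A pair of members fell below 1 CPM. Mrpl53, which lies inside a span shared with Ccdc142 on chromosome 6 (83109108 to 83109932), is listed at 0 in all 10 libraries, where 3 counts would correspond to 0.0663 to 0.239 CPM in the pull-downs. Mrpl23, which has the pseudogene Mrpl23-ps1, had 2 to 37 counts in a pull-down and 19 in the input. RefSeq spans of 20 members overlap another gene row and 4 have a pseudogene of the same name, 22 members in all. Without a stated strand setting, reads of such a gene and its neighbour cannot be told apart. The 55 other members, all measured, had a median ratio of 2.20, the same as the whole set, and 22 of them were at least 2-fold above the input throughout.

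Ribosome subunits stood higher against the input than the rest of the mitochondrial translation apparatus. The 6 subunit genes named without an Mrpl or Mrps number had a median ratio of 2.39 and were above the input in each pull-down. Among them were Chchd1 at 4.49, Gadd45gip1 at 3.12, Aurkaip1 at 2.54, the peptidyl-tRNA hydrolase Ict1 at 2.26, Dap3 at 1.77 and Ptcd3 at 1.23. Assembly and rRNA-modifying factors had a median of 1.47 over 26 genes, with 2 at least 2-fold above the input in every pull-down. Those leading were Slirp at 3.10 and Malsu1, a large-subunit assembly factor, at 2.57, and Mterf4 was lowest at 0.565. Translation factors had a median of 1.40 over 11 genes, from 2.04 for the elongation factor Tsfm to 0.527 for the recycling factor Gfm2. Mitochondrial aminoacyl-tRNA synthetases had a median of 1.21 over 17 genes, and 0 of them, like 0 of the translation factors, were at least 2-fold above the input in every pull-down. Their highest was Yars2 at 1.79 and their lowest Mars2 at 0.731. Nuclear-encoded oxidative phosphorylation genes were higher than the mitochondrial ribosomal proteins, at a median of 3.04 over 77 genes, and cytosolic ribosomal proteins lower, at 1.52 over 69 genes. These differences between groups of genes rest on 1 input and were not tested.

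**Figure D2:**
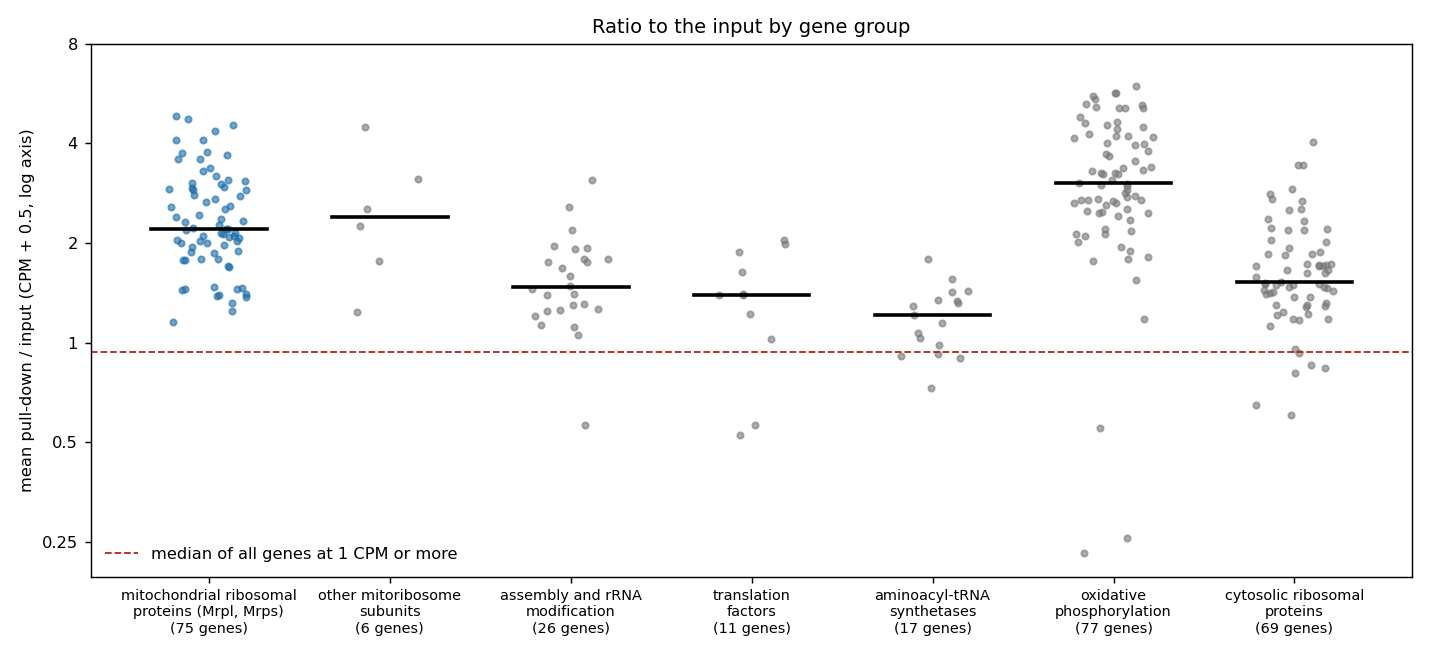
Mean ratio of pull-down to input (CPM + 0.5, log axis) of each gene in 7 groups; black bars are group medians and the dashed line is the median of all genes at 1 CPM or more. All 75 mitochondrial ribosomal protein genes lie above 1, with a median of 2.20, between the oxidative phosphorylation genes at 3.04 and the synthetases at 1.21.

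Genes of short genomic span stood higher against the input in general, and most members are short. Their median genomic span was 7632 bases, and 58 of the 75 fell in the 3 lowest of 10 equal classes of span. Over all genes the log2 ratio had a median of 0.46 in the shortest class and -0.40 in the longest, against 1.14 for the members. Across genes, which are not independent replicates and share each library, Spearman's rho of ratio and span was -0.289 over 12838 genes and -0.245 over the 75 members. The part of span in the members' ratios was not tested. Glial RNA moved the other way. Per pull-down the 7 astrocyte markers summed to 142 to 818 CPM, against 2155 in the input, 6 oligodendrocyte markers to 183 to 940 against 2474, and 6 microglial markers to 4.49 to 23.7 against 65.6, with no marker of these 3 lists at 0 in any group. Their part in the ratios was not tested.

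Many of these genes start beside another gene. RefSeq windows of 250 bases before and 50 after the start (GRCm38.p6, the mm10 assembly) matched 68 of the 77 members. In 19 of the 68 (27.9%) a protein-coding gene began on the other strand within 300 bases upstream, against 6.48% of 17492 coding genes with a window. Those coding genes were counted whatever their level. Mrpl46 and Mrps11, of the large and the small subunit, begin 42 bases apart and point away from each other. Mrps12 shares its upstream region with Sars2, the mitochondrial seryl-tRNA synthetase, and Mrpl21 with Ighmbp2, a helicase gene. The bases between these starts are shown because they are what each pair has in common, and the 250 bases before Mrps21 because it had the highest ratio. All read 5′ to 3′ on the strand of the gene named first, and capitals mark matches to the NRF1 motif in the Mrps21 region and to the SP and CCAAT motifs in the others; the Mrpl21 region holds none. The regions are chr3:95871515-95871764 (minus strand), chr19:3283011-3283041 (plus), chr7:28741822-28741967 (minus) and chr7:78783090-78783130 (minus).
Mrps21: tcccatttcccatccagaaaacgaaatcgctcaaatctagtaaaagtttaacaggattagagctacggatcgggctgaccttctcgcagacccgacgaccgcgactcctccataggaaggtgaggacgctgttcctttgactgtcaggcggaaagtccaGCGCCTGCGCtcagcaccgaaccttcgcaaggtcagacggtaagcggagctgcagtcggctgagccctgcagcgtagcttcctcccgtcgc
Mrpl21 to Ighmbp2: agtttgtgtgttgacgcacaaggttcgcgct
Mrps12 to Sars2: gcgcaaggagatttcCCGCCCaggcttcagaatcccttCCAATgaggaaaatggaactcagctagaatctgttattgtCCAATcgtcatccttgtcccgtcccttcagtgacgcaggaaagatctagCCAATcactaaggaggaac
Mrpl46 to Mrps11: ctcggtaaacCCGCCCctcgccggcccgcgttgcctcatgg

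Most neighbours that share a start region with a member had a lower ratio to the input than the member. Mrps12 was at 4.54 times the input and Sars2 at 1.07, Mrpl21 at 4.37 and Ighmbp2 at 1.29, and Mrps18c at 3.74 and Helq at 0.479. The spans of Mrpl21 and Ighmbp2 overlap, so the limit on telling reads apart given above holds for this pair. It also holds for Mrpl14 with Tmem63b, Mrpl18 with Tcp1, Mrpl2 with Klc4, Mrpl37 with Cyb5rl and Mrps7 with Gga3. In each of these overlapping pairs the member was higher, and all are among the pairs counted below. Mrpl46 and Mrps11 were at 3.60 and 2.37. Over the 14 pairs of a member with a measured coding gene outside the family, the member was higher in 11, with a median of 2.56 against 1.23. Psma2 beside Mrpl32 (2.61 and 2.53), Fau beside Mrpl49 (2.62 and 2.43) and Ptcd2 beside Mrps27 (1.66 and 1.37) were the exceptions.

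The start regions held some motifs more often than those of other genes. Windows were searched on both strands for CCGGAAG, the core bound by ETS factors, AAGATGGCG, bound by YY1, GGGCGG, bound by SP factors, CCAAT and TATAAA, and for the NRF1 motif. The ETS core was in 25 of 68 members (36.8%) and in 12.9% of coding genes, the NRF1 motif in 13 (19.1%) and 7.17%, and the YY1 motif in 8 (11.8%) and 2.14%. The SP motif was in 34 of the 68 members and 49.2% of coding genes and CCAAT in 27 (39.7%) and 42.3%, whereas TATAAA was in 5 members (7.35%) and 14.8% of coding genes. These shares of coding genes include genes below 1 CPM. Among coding genes at 1 CPM or more, 6820 held the SP motif and 3003 did not, against 33 and 33 measured members. For TATAAA the counts were 829 and 8994, against 5 and 61. For the ETS core they were 1885 and 7938, against 24 and 42, and for NRF1 1125 and 8698, against 13 and 53. Beside measured genes, SP was thus less frequent in members and TATAAA about as frequent. The median ratio was 2.75 for members with the ETS core (24 measured genes) and 2.17 for those without (42 genes). Coding genes at 1 CPM or more showed 1.16 with the core and 0.944 without. For the NRF1 motif the members' medians were 2.13 with and 2.31 without. These matches are descriptions of the letters in the windows, with no test.

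Levels shifted from library to library, also within groups. Each of the 76 members that passed the count filter was set against its own mean over the 9 pull-downs on the log2 CPM scale with TMM scaling. In cocaine 2, 73 of 76 lay above their mean, with a median deviation of 0.27, and in cocaine 3, 65 did, at 0.18. In cocaine 1 only 18 did, at -0.07. Of the saline libraries, saline 3 had 12 above, at -0.19, and saline 1 and saline 2 had 28 and 27, at -0.03 and -0.03. Yoked 1, yoked 2 and yoked 3 had 35, 8 and 49 above, with medians of -0.01, -0.17 and 0.11. Cocaine 1 thus lay below saline 1 and saline 2, and cocaine 2 and cocaine 3 lay above every yoked and saline library. Over all genes tested, 48.9% to 52.9% lay above their mean in each library. Medians of large-subunit and small-subunit genes were 0.28 and 0.26 in cocaine 2 and -0.18 and -0.23 in saline 3, but -0.14 and -0.24 in yoked 2, 0.12 and 0.03 in yoked 3, and of opposite sign in saline 1, at -0.04 and 0.01. Yoked 3 was the most mixed, with quartiles of -0.07 and 0.31, where yoked 1 had -0.08 and 0.03. The ribosomal RNA gene Rn45s took 11.4%, 16.9% and 20.5% of gene counts in cocaine 1, cocaine 2 and cocaine 3, and 10.5% to 15.2% in the other pull-downs. Its part in the members' levels was not tested.

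**Figure D3:**
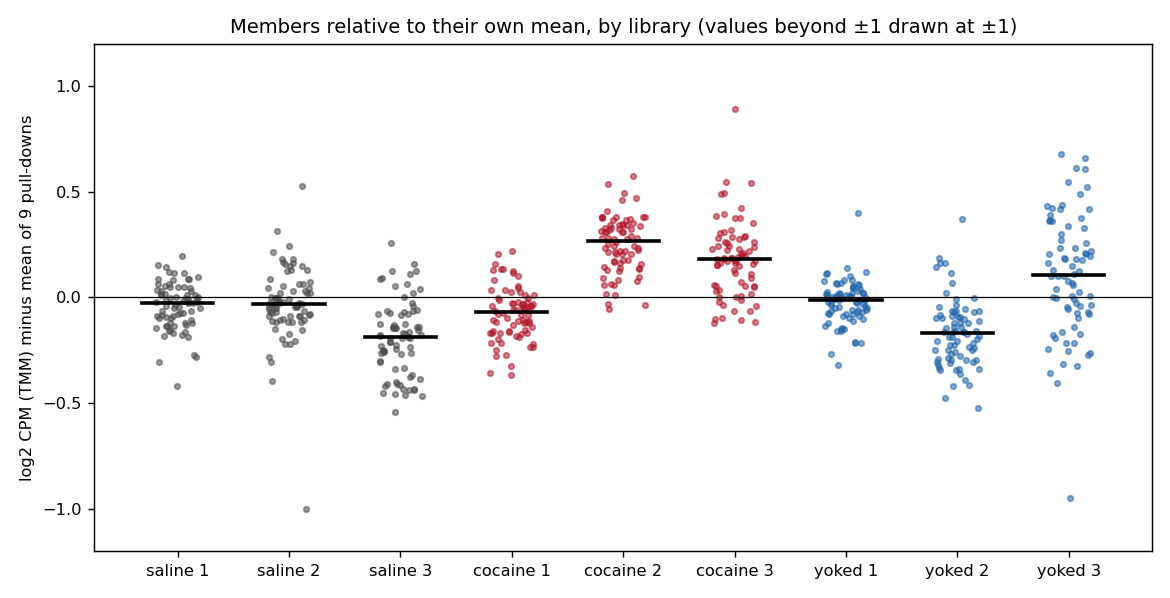
Deviation of each of 76 members from its own mean over 9 pull-downs (log2 CPM with TMM scaling), by library; black bars are medians and values beyond 1 either way are drawn at 1. Cocaine 2 and cocaine 3 lie high (0.27 and 0.18) and cocaine 1 (-0.07) does not.

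Cocaine self-administration was compared with saline to find messages that differ with the drug. No mitochondrial ribosomal protein gene passed, and most had small positive differences. Of the 76 members tested, 71 had a fitted value above 0, against 50.6% of all 14680 genes tested, with a median log2 fold change of 0.21 against 0.0036. None of the 76 was called by edgeR's quasi-likelihood test at a Benjamini-Hochberg adjusted p under 0.05 (smallest adjusted p = 0.999), nor by DESeq2 or limma-voom. Of all genes, 0% were called by edgeR, and DESeq2 called 1, which is no member. At an unadjusted p under 0.05 there were 4 members with higher values and 0 with lower ones, where 1.79% and 1.05% of all genes were. With TMM scaling, the 3 cocaine libraries lay wholly above the 3 saline libraries in 14 members, against 6.38% of all genes. They lay wholly below in 1, Mrps18b, against 5.08%. Some of the 14 overlap in plain CPM, such as Mrps33, at 26.6 to 31.2 in saline and 30.3 to 36.4 in cocaine libraries. The cocaine mean was the highest of the 3 groups in 63 of 76 members, against 33.5% of all genes. All members had a share of 0.263%, 0.314% and 0.285% of gene counts in cocaine 1, 2 and 3, and of 0.275%, 0.271% and 0.232% in saline 1, 2 and 3. Cocaine 1 is below saline 1 and saline 2 on that scale, and the groups overlap.

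The member with the smallest unadjusted p was Mrps21. It was at 56.6, 57.7 and 52.2 CPM in saline 1, 2 and 3, at 61.5, 77.3 and 66.2 in cocaine 1, 2 and 3, and at 62.8, 49.4 and 67.0 in yoked 1, 2 and 3. All cocaine libraries were above all saline libraries, and the yoked ones overlapped both. Its log2 fold change was 0.36 ± 0.16 (SE; edgeR unadjusted p = 0.0361, Benjamini-Hochberg adjusted p = 0.999). Mrpl24, whose bacterial counterpart lies near the exit of the peptide tunnel and whose span overlaps Rrnad1, was at 10.7, 7.74 and 7.87 CPM in saline and 11.1, 12.5 and 10.6 in cocaine libraries. The groups overlapped slightly in CPM and were apart with TMM scaling, and the log2 fold change was 0.43 ± 0.19. Mrpl54 was at 16.9, 16.6 and 12.5 CPM in saline and 16.1, 23.4 and 23.9 in cocaine libraries, 0.53 ± 0.24 on the log2 scale, with cocaine 1 below saline 1 and saline 2.

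The next 3 showed the same split within the cocaine group. Mrps26, a mitochondrion-specific small-subunit protein, was at 35.3, 34.1 and 23.6 CPM in saline and 31.97, 43.0 and 41.0 in cocaine libraries. Mrpl12 was at 53.7, 52.2 and 45.3 in saline and 46.7, 67.2 and 71.5 in cocaine, and Mrpl28 at 32.4, 30.4 and 22.7 and at 26.4, 38.9 and 43.6. In each, cocaine 1 was below at least 2 saline libraries and cocaine 2 and cocaine 3 above all of them. Their log2 fold changes were 0.39 ± 0.18, 0.36 ± 0.17 and 0.42 ± 0.20 (SE), and none passed. Each rested in part on 1 library: Mrps26 had 0.25 without saline 3, Mrpl28 0.24 without cocaine 3, and Mrpl12 0.21 without cocaine 3 and 0.55 without cocaine 1. The stalk proteins Mrpl11 and Mrpl10 and the decoding-centre protein Mrps12 did not pass either.

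**Figure D4:**
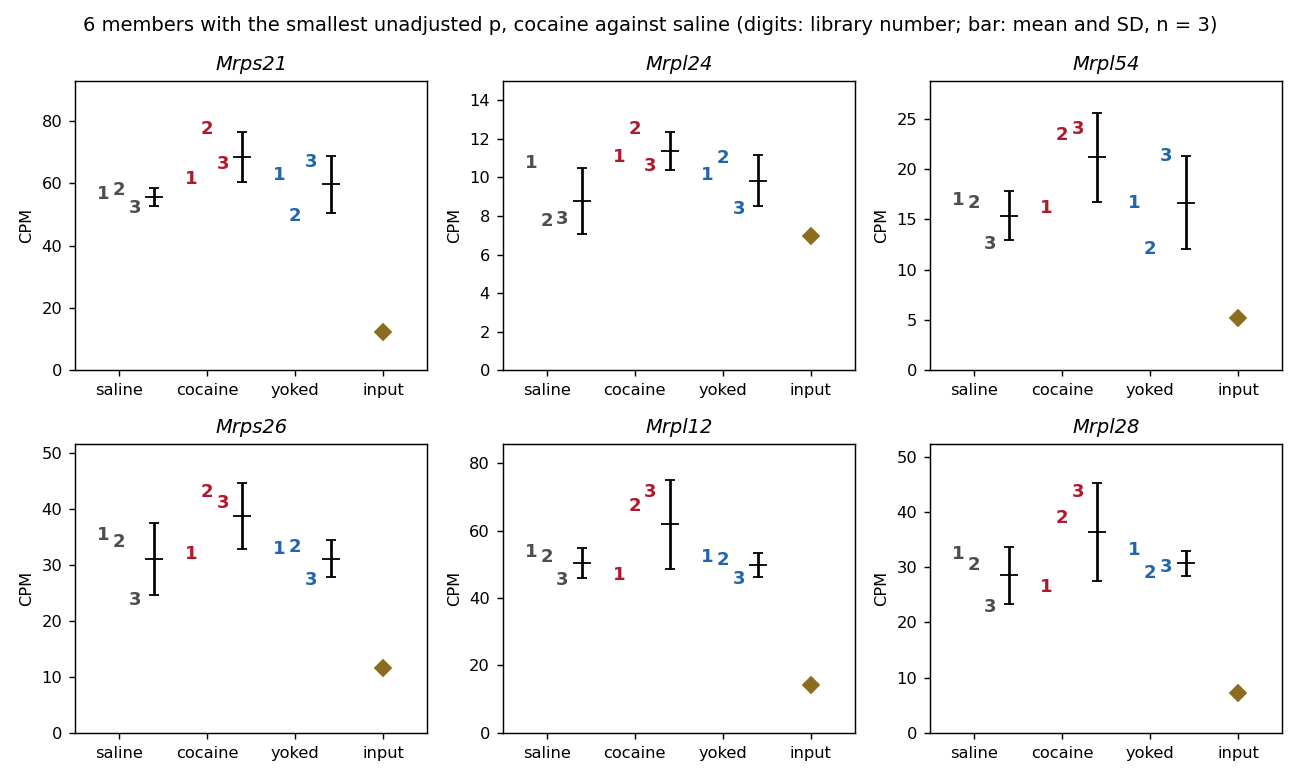
CPM of the 6 members with the smallest unadjusted p between cocaine and saline; digits are library numbers, bars the mean and SD of 3 libraries, diamonds the input, and each axis starts at 0. In Mrpl54, Mrps26, Mrpl12 and Mrpl28 cocaine 1 lies with the saline libraries.

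None of the other genes of mitochondrial translation passed. The 6 subunits without a number had a median log2 fold change of 0.32, with 4 above 0. Among them Gadd45gip1 was at 19.4, 16.0 and 13.9 CPM in saline and 18.8, 25.1 and 27.6 in cocaine libraries, a log2 fold change of 0.60 ± 0.19 (SE; edgeR unadjusted p = 0.00729, Benjamini-Hochberg adjusted p = 0.999), and Dap3 was level at -0.0009. The medians were 0.20 for 11 translation factors, 0.15 for 26 assembly factors and 0.09 for 17 synthetases, with 8, 20 and 11 members above 0. Oxidative phosphorylation genes had a median of 0.28, with 76 of 79 above 0, and cytosolic ribosomal proteins 0.26, with 70 of 75. Over all genes the median was 0.16 in the tenth with the shortest span and -0.11 in that with the longest. Its part in the members' shift was not tested. Astrocyte, oligodendrocyte and microglial markers had medians of -0.05, 0.03 and 0.02, and the summed ranges overlapped between the groups (142 to 326 CPM in cocaine and 156 to 461 in saline for astrocytes). Cortical glutamatergic markers had a median of 0.49, with 4 of 4 above 0 (64.3 to 95.3 CPM in cocaine and 21.1 to 74.5 in saline). D2 neuron markers had a median of 0.0042, with 3 of 5 above 0, and interneuron markers 0.03, with 3 of 5 above 0. Oligodendrocyte precursor, endothelial and mural, and ependymal and choroid plexus markers had medians of -0.53, -0.51 and -0.92, with 0 of 4, 0 of 5 and 0 of 3 above 0. The part of these cells in the members' values was not tested. Without cocaine 2 the members' median fell from 0.21 to 0.14, and without cocaine 1 it was 0.30.

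Cocaine was next compared with the yoked control. The members' median log2 fold change was 0.14, against -0.03 over all genes tested, with 61 of 76 above 0 where 45.5% of all genes were. Like gene groups were also above 0: oxidative phosphorylation genes had a median of 0.12, with 63 of 79 above 0, and cytosolic ribosomal proteins 0.19, with 68 of 75. Over all genes the median was 0.13 in the tenth with the shortest span and -0.11 in that with the longest. The part of span in the members' shift was not tested. By edgeR with Benjamini-Hochberg adjustment 0 members passed (lowest adjusted p = 0.974), as by DESeq2 and limma-voom, and 0% of all genes did by edgeR. At an unadjusted p under 0.05, 2 members had higher and 0 lower values, where 1.36% and 1.22% of all genes did. The groups did not overlap in 1 member with cocaine higher, Mrpl4, and in 0 with cocaine lower, against 3.42% and 3.34% of all genes. Mrpl4, the counterpart of a bacterial large-subunit protein, was at 47.8, 57.6 and 42.2 CPM in cocaine and 44.1, 40.3 and 31.0 in yoked libraries, 0.37 ± 0.16 on the log2 scale (SE; edgeR unadjusted p = 0.0351). In CPM, yoked 1 lay between cocaine 3 and cocaine 1, so that the separation holds with TMM scaling only. Mrpl17 was at 96.3, 117 and 98.0 in cocaine and 97.8, 75.5 and 77.2 in yoked libraries, 0.33 ± 0.15. Mrpl52, Mrps11, Mrpl12 and Mrps16 had log2 fold changes of 0.35, 0.39, 0.34 and 0.34, and none passed. Without cocaine 2, Mrpl52 had 0.15 and Mrpl4 0.24, and Mrpl12 had 0.19 without cocaine 3 and 0.52 without cocaine 1. The members' median rested on single libraries: it was 0.26 without yoked 3, 0.23 without cocaine 1, 0.09 without cocaine 2 and 0.07 without yoked 2. Astrocyte, oligodendrocyte and microglial markers were lower in cocaine, with medians of -0.71, -0.52 and -0.62, and 7 of 7, 6 of 6 and 5 of 6 of them below 0. Oligodendrocyte precursor, endothelial and mural, and ependymal and choroid plexus markers had medians of -1.04, -0.53 and -0.71, and cortical glutamatergic markers -0.00077. D2 neuron markers had a median of -0.36, with 0 of 5 above 0, and interneuron markers -0.31, with 2 of 5 above 0. The summed D2 markers overlapped, at 216 to 272 CPM in cocaine and 201 to 486 in yoked libraries. Yoked 2 had the highest sum of the astrocyte, oligodendrocyte and microglial lists, at 1782 CPM, where the other pull-downs had 341 to 1079. The part of any of these cell types in the members' values was not tested.

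The yoked control was compared with saline last. The members' median log2 fold change was 0.07, against 0.03 for all genes, with 55 of 76 above 0 where 55% of all genes were. Oxidative phosphorylation genes were at 0.16, with 66 of 79 above 0, and cytosolic ribosomal proteins at 0.08, with 50 of 75. Again 0 members passed by edgeR with Benjamini-Hochberg adjustment (lowest adjusted p = 0.999), DESeq2 or limma-voom, and 0% of all genes did by edgeR. At an unadjusted p under 0.05, 2 members had higher and 0 lower values, where 1.16% and 0.681% of all genes did. With TMM scaling the groups did not overlap in 4 members with yoked higher (Mrpl15, Mrpl23, Mrpl45 and Mrps9), against 3.3% of all genes. In 1 member yoked was lower (Mrps18b, named after its values were seen, as was Mrpl45), against 3.39%. In plain CPM the groups overlapped in Mrpl15, Mrpl23 and Mrpl45. Mrps22, a mitochondrion-specific small-subunit protein, was at 20.8, 15.9 and 30.1 CPM in yoked and 17.0, 17.6 and 14.4 in saline libraries. Yoked 2 lay among the saline values, and the log2 fold change was 0.50 ± 0.22 (SE; edgeR unadjusted p = 0.0381) with yoked 3 and 0.19 without it. Mrpl15 was at 28.2, 25.1 and 33.2 CPM in yoked and 26.1, 24.3 and 18.3 in saline libraries, 0.38 ± 0.17, with yoked 2 below saline 1 in CPM. Mrpl50, Mrps9 and Mrpl33 had log2 fold changes of 0.29, 0.25 and 0.35. Without yoked 3, Mrpl15 had 0.24, Mrpl50 0.05 and Mrpl33 0.04. Mrpl23 had the largest, at 0.85 ± 0.56, on 2 to 17 counts in saline and 27 to 36 in yoked libraries, and 0.54 without saline 2. Without yoked 3 the members' median was -0.02, and 33 of the members were above 0. Astrocyte, oligodendrocyte, oligodendrocyte precursor and microglial markers were at medians of 0.65, 0.57, 0.66 and 0.56, with 7 of 7, 6 of 6, 4 of 4 and 5 of 6 above 0. Cortical glutamatergic markers were at 0.58 (4 of 4), endothelial and mural ones at 0.13 (3 of 5) and ependymal and choroid plexus ones at -0.21 (0 of 3). D2 neuron markers were at 0.30 (4 of 5) and interneuron markers at 0.35 (4 of 5). Summed astrocyte markers overlapped, at 154 to 818 CPM in yoked and 156 to 461 in saline libraries. The part of any of these cell types in the members' values was not tested. The comparisons share libraries, so their values are not independent of each other.

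**Figure D5:**
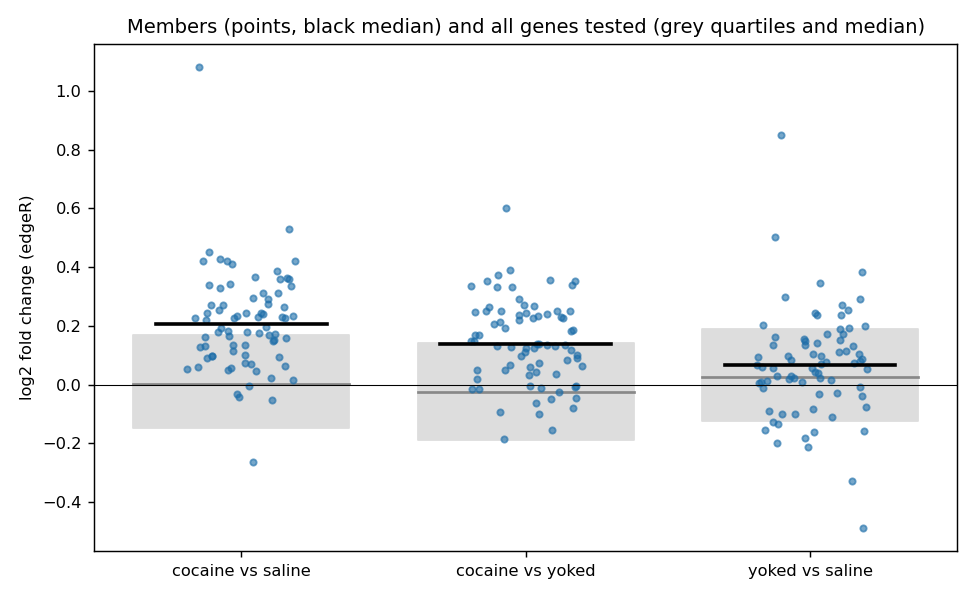
Log2 fold change (edgeR) of the 76 members in each comparison, with black medians of 0.21, 0.14 and 0.07; grey bands are the quartiles and grey bars the medians of all 14680 genes tested. The 3 comparisons share libraries and no point passed the adjusted threshold.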

How the data were processed

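TRAP-seq of 9 pull-downs and 1 input was taken as the deposited whole-number read counts per gene symbol. Per the submitters' processing notes, the tools were STAR 2.0.0e and HTSeq and the build mm10; the sources used here do not give the annotation, strand setting or counting mode. The 6 rows naming no gene were left out of totals; reads in no feature were 12.3% to 16.1% of reads in genes, in no feature or ambiguous per pull-down, with 27.6% for the input, and ambiguous reads 2.54% to 3.03%, with 6.63%. CPM used total gene counts. Intervals for 3 counts cover counting error only. No libraries of a group were duplicates (chi-square over degrees of freedom 15.3 to 169). Groups were compared with the quasi-likelihood test of edgeR 4.0.16 (R 4.3.3; robust, TMM, filterByExpr) over all 9 pull-downs, with Benjamini-Hochberg adjustment over 14680 genes. DESeq2 1.42.0 and limma-voom (limma 3.58.1) were alternatives, beside other scalings and filters, a replicate block and each library left out. The fit was tested on simulated data for cocaine against saline, with 100 genes changed by a log2 value of 1 and 100 by 2. It called 68% and 94% of them, with 9 false calls among 14680 genes. Changes as small as the members' were not simulated. Members and lists were chosen with earlier results of these data known. Members named are, per group comparison, the 6 with the smallest unadjusted p, and against the input the 6 highest and 6 lowest ratios, plus a fixed set of structural landmarks. Levels per transcript length were not computed, since no transcript lengths were used here, so levels of different genes are not ranked. All 77 members matched RefSeq (GRCm38.p6), which gave spans and sequences. The windows of Mrpl13, Mrpl15, Mrpl19, Mrpl38, Mrpl4, Mrpl54, Mrps28, Mrps34 and Mrps35 were not used here. Libraries with the same number were not treated as pairs.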

Additional observations from a re-analysis of the deposited data

Results flagged for a closer look

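Across the 9 pull-downs, the log2 ratio to the input of 75 members and of their median was examined for a single library far from the rest, by Dixon's gap criterion of 0.493. It marked 4 of the 76 items examined, all of them members. That is close to the 1 in 20 that chance marks, so the marks are no result about these genes. Mrpl52, a mitochondrion-specific large-subunit gene, was at 2.21 in cocaine 2 (4.64-fold), with the next library at 1.78. Mrpl45 was at 1.13 in cocaine 3, with the next at 0.99. Mrpl51 and Mrps17 were low in saline 3, at 0.70 and 0.53, with the nearest libraries at 1.06 and 0.83. The members' median was not marked.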

How the results depend on the processing

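Against the input, the members' median log2 ratio was 1.14 and stayed between 1.09 and 1.18 under the other pseudocounts, filters and scalings, and between 1.11 and 1.17 with each pull-down left out. Under these 17 alternatives the members used lay above the input in every pull-down, with 1 exception. Without the filter Mrpl23 was included, and it lay below the input in saline 2, at a log2 ratio of -0.55 on 2 counts. Of the members, 22 to 35 were 2-fold above the input in every pull-down, 22 being the count without overlapping or duplicated members. No member was called in any comparison under any alternative. Single genes outside the family were, named here after their values were seen: cocaine against saline gave 1 gene with DESeq2, 1 with only the 2 groups compared and 1 without yoked 3, each time the row AK155692, and yoked against saline 1 (the same row) without yoked 3; leaving out a library gave 0 to 1. With the replicate number as a block, 1 gene (Gh) was called in each of the 3 comparisons, and 0 members were. Deviations of same-numbered libraries had correlations from -0.0168 to 0.246 over all genes, and those of differently numbered libraries from -0.254 to 0.151. The 3 pairs of libraries numbered 3 stood highest, at 0.231, 0.232 and 0.246. The labels name no pairing, so the numbers were not taken as pairs. Whether libraries of the same number share an effect was not tested. Against the input the median log2 ratio of all genes was -0.096, 0.05 with a minimum of 5 CPM, and -0.15 without Rn45s and nuclear noncoding RNAs. With libraries left out, the members' median ran from 0.14 to 0.30 for cocaine against saline, from 0.07 to 0.26 for cocaine against yoked, and from -0.024 to 0.13 for yoked against saline, the lowest without yoked 3, where 33 of the members were above 0 (33 to 58 over all libraries left out). With library totals in place of TMM, chosen after seeing the data, the medians were 0.15, 0.12 and 0.02. Depth limits Mrpl23, Mrps18b, Mrps34 and Mrps36 most.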
